A study of Mus musculus with 12 samples.

Results

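The late interval of murine osteoclastogenesis in culture, from day 3 to day 5, was examined by comparing the 4 miRNA arrays of day 5 with the 4 arrays of day 3, which are 8 of the 12 arrays of the series. The arrays were chosen by the day in their titles, and no measured value was used to choose them. Bone marrow came from long bones of male C57BL/6 mice aged 6 to 8 weeks, red cells were lysed, B220/CD45R+ and CD3+ lymphocytes were removed by MACS sorting, and the remaining cells were cultured with M-CSF and RANKL at 30 ng/ml each. Both days received both cytokines, so RANKL was not varied between them. The 4 cultures of each day were independent, per the study's methods, and 1 culture was hybridized to each array. They remained mixed marrow cultures, and no sorting of osteoclasts from other adherent cells is described. All 4 day 3 arrays lay on 1 slide with its own scan, and all 4 day 5 arrays lay on another slide with its own scan, so slide, scan and day cannot be told apart for any value given here.

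Osteoclasts arise from myeloid precursors: M-CSF keeps the precursors alive and dividing, RANKL drives them to differentiate, and in the last phase mononuclear cells fuse into multinucleated, bone-resorbing cells. miRNAs are short RNAs that repress mRNAs, mostly through pairing of the seed, bases 2 to 8, with sites in the target. Several are known regulators of this lineage, among them the miR-29 family, described as promoting osteoclast formation, and miR-146a, a brake on NF-kB signaling, the pathway that RANKL activates.

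The mature sequences of 31 of the 35 miRNAs that changed by the rule given below were found among RefSeq entries (GRCm38.p6), by matching the probe to the mature miRNA, and those on which the results turn are printed 5′ to 3′ with the seed in capitals. The first set holds the miRNAs that were higher at day 5 and detected on all 8 arrays, except miR-151-5p, which had no match.
miR-199a-3p: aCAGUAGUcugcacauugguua
miR-489: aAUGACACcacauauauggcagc
miR-342-3p: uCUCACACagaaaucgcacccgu
miR-146a: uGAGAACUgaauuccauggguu
miR-362-5p: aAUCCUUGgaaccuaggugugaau

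The second set holds the miRNAs that were lower at day 5 and detected on all 8 arrays, except miR-1897-5p and miR-2140, which had no match. They are shown because many are rich in G and C, to which the last part of the results returns.
miR-680: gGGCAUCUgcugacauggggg
miR-1224: gUGAGGACuggggagguggag
miR-705: gGUGGGAGguggggugggca
miR-188-5p: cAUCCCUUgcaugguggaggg
miR-494: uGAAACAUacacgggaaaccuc
miR-92a: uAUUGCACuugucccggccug
miR-3072*: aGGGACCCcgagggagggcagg

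The third set shows miRNAs that share a seed. The pair miR-290-5p and miR-292-5p moved alike, whereas miR-152, miR-146a, miR-489, miR-92a and miR-130a passed the rule while the relatives printed with them did not.
miR-290-5p: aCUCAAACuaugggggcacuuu
miR-292-5p: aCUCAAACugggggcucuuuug
miR-152: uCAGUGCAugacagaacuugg
miR-148a: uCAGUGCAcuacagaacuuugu
miR-148b: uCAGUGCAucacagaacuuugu
miR-146b: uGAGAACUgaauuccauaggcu
miR-425: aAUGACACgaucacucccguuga
miR-25: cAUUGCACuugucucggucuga
miR-130a: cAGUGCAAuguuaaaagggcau
miR-130b: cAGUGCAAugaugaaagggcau
miR-301a: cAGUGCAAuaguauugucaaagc

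The array carries 696 mouse miRNAs, and the values used were total signals per miRNA in linear intensity. A level below is the log2 of this signal after quantile normalization, and a difference of 1 in level is a 2-fold change. Between 211 and 226 miRNAs were detected per day 3 array and between 186 and 269 per day 5 array. Day 5 replicate 4 had the fewest detected miRNAs and the highest negative control signal, 452 against 135 to 175 on the other day 5 arrays. Before normalization the summed signal of detected miRNAs at day 5 was 138% of that at day 3. Of 3 control oligonucleotides with 20 spots each, the mean log2 signals at day 5 stood 0.32 and 0.26 above and 0.04 below those at day 3. The part of these differences in the changes below was not tested.

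Of 334 miRNAs detected on at least 1 of the 12 arrays, 35 (10.5%) changed between day 3 and day 5 by more than 2-fold with an adjusted p under 0.01 (limma, Benjamini-Hochberg). Of these, 20 (5.99%) were higher at day 5 and 15 (4.49%) were lower. With the adjusted p alone, 85 passed (25.4%), 49 of them higher (14.7%) and 36 lower (10.8%), and the median change of all 334 was 0. The division into higher and lower depended on the scaling: 10 and 24 were called when arrays were scaled by the 75th percentile over miRNAs that all 12 detected, 46 and 3 without normalization, and 8 and 25 from the normalized values that the authors deposited. All 35 kept their direction under the scalings tried on the scanner signals. Each of the 35 has several probes, and for 30 all probes had the sign of the change. Probe signals were scaled by the array's 75th percentile and not quantile normalized, so their sizes are on another scale. The exceptions were miR-292-5p, miR-322*, miR-342-5p, miR-489 and miR-501-5p. The arrays of both days did not overlap for 17 of the 20 higher and 15 of the 15 lower miRNAs, beside 131 of all 334 (39.2%), and the smallest two-sided p that an exact permutation of 4 against 4 arrays can give is 0.0286. The plot of level against change shows that the changed miRNAs span dim and bright signals.

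**Figure D1:**
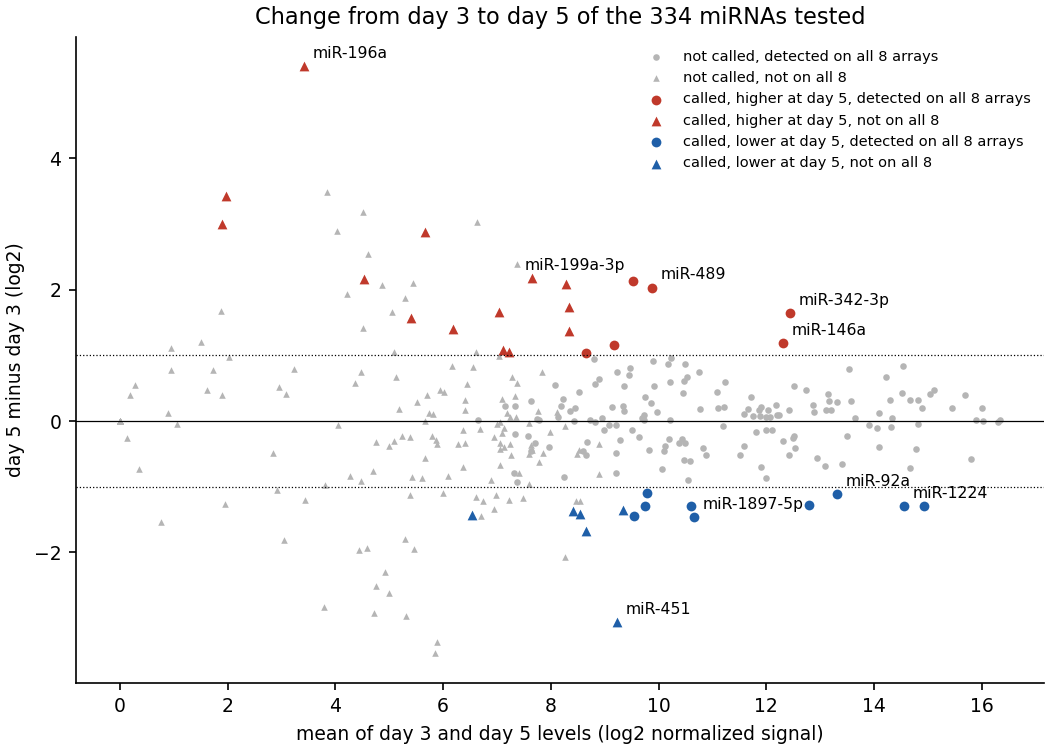
Each point is 1 of the 334 miRNAs tested, with its mean level over days 3 and 5 (log2 normalized signal) on the x axis and the change (day 5 minus day 3, log2) on the y axis. Red and blue mark the 20 miRNAs called higher and the 15 called lower, circles those detected on all 8 arrays and triangles the others, and dotted lines a 2-fold change. Among circles the 6 red points lie between 1.04 and 2.13.

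Among the 20 higher miRNAs, 6 were detected on all 8 arrays: miR-199a-3p, miR-489, miR-342-3p, miR-146a, miR-151-5p and miR-362-5p. miR-489 lies within Calcr, the gene of the calcitonin receptor, a late marker of osteoclasts (probe at mm9 chr6:3671963-3671978). Its level was 8.86, 8.74, 9.01 and 8.86 on the day 3 arrays and 10.83, 10.85, 10.83 and 11.06 on the day 5 arrays. Every day 5 array was thus above every day 3 array, and the spread within a day was small beside the difference of 2.03 ± 0.08 (SE, adjusted p = 5.70e-08, limma), a 4.08-fold rise. Of its 4 probes 3 rose, by up to 2.35, and 1 showed a change of 0. In linear scanner signal the same miRNA gave 294 to 405 at day 3 and 1534 to 1964 at day 5. It was not detected on any day 1 array, where all 4 values lay at the floor. The SE and p use all 3 days, so they rest in part on these values without a measured spread. miR-425, which has the same seed as miR-489, differed by 0.21 ± 0.10 (SE) and did not pass the adjusted p.

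miR-199a-3p, an miRNA abundant in fibroblasts and other mesenchymal cells, gave the largest rise among miRNAs detected on all 8 arrays. Its level was 8.55, 8.48, 8.50 and 8.33 at day 3 and 10.60, 10.94, 10.39 and 10.46 at day 5, a difference of 2.13 ± 0.21 (SE, adjusted p = 4.17e-05, limma). The days did not overlap, and the day 1 mean of 8.37 was close to that of day 3. Its mature sequence is shared by miR-199b-3p, so the signal cannot be assigned to 1 of these genes. The partner arm miR-199a-5p rose by 2.09 ± 0.17 (SE, adjusted p = 1.27e-05, limma), with values of 6.99 to 7.42 at day 3, where 3 arrays detected it, and 9.03 to 9.61 at day 5. miR-199b* rose by 2.18, from a mean of 6.56 ± 0.22 to 8.74 ± 0.20 (SD, n = 4 each), although only 1 day 3 array had detected it.

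miR-342-3p, which lies within Evl, an actin-regulating gene (probe at mm9 chr12:109896897-109896912), measured 11.52, 11.67, 11.57 and 11.71 at day 3 and 13.28, 13.49, 13.06 and 13.22 at day 5, a 3.13-fold rise (difference 1.65 ± 0.13 SE, adjusted p = 9.85e-06, limma). The day 1 mean was 12.05, above that of day 3. The opposite arm of the same hairpin, miR-342-5p, was not detected on any day 3 array and was detected on 3 of the 4 day 5 arrays, and its rise was at least 3.85-fold (adjusted p = 0.00211, limma).

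miR-146a, which targets the adaptors TRAF6 and IRAK1 of NF-kB signaling (probe at mm9 chr11:43187908-43187925), measured 11.67, 11.78, 11.67 and 11.74 at day 3. At day 5 it measured 12.47 and 12.56 in replicates 1 and 2 and 13.41 and 13.17 in replicates 3 and 4, so that its day 5 spread (SD 0.46) was wider than its day 3 spread (SD 0.06). All 4 day 5 values were nevertheless above all day 3 values, and the difference was 1.19 ± 0.20 (SE, adjusted p = 0.000915, limma). The day 1 mean was 11.75, close to that of day 3. miR-146b, with the same seed, differed by 0.15 ± 0.15 (SE) and did not pass.

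The remaining changes of these 6 were smaller. miR-151-5p rose by 1.15 ± 0.17 (SE, adjusted p = 0.000454, limma), from 8.46 to 8.64 at day 3 up to 9.63 to 9.86 at day 5. It was below 2-fold, at 0.79, with normexp background correction and, at 0.83, with scaling by the 75th percentile over miRNAs that all arrays detected. miR-362-5p rose by 1.04 ± 0.20 (SE, adjusted p = 0.00241, limma). Its day 3 replicate 4, at 7.47, lay apart from the others at 8.30 to 8.39, and without that array the change was 0.83, below 2-fold. It was also below 2-fold, at 0.94, without day 5 replicate 3, and at 0.79 and 0.65 under the same scaling and normexp.

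**Figure D2:**
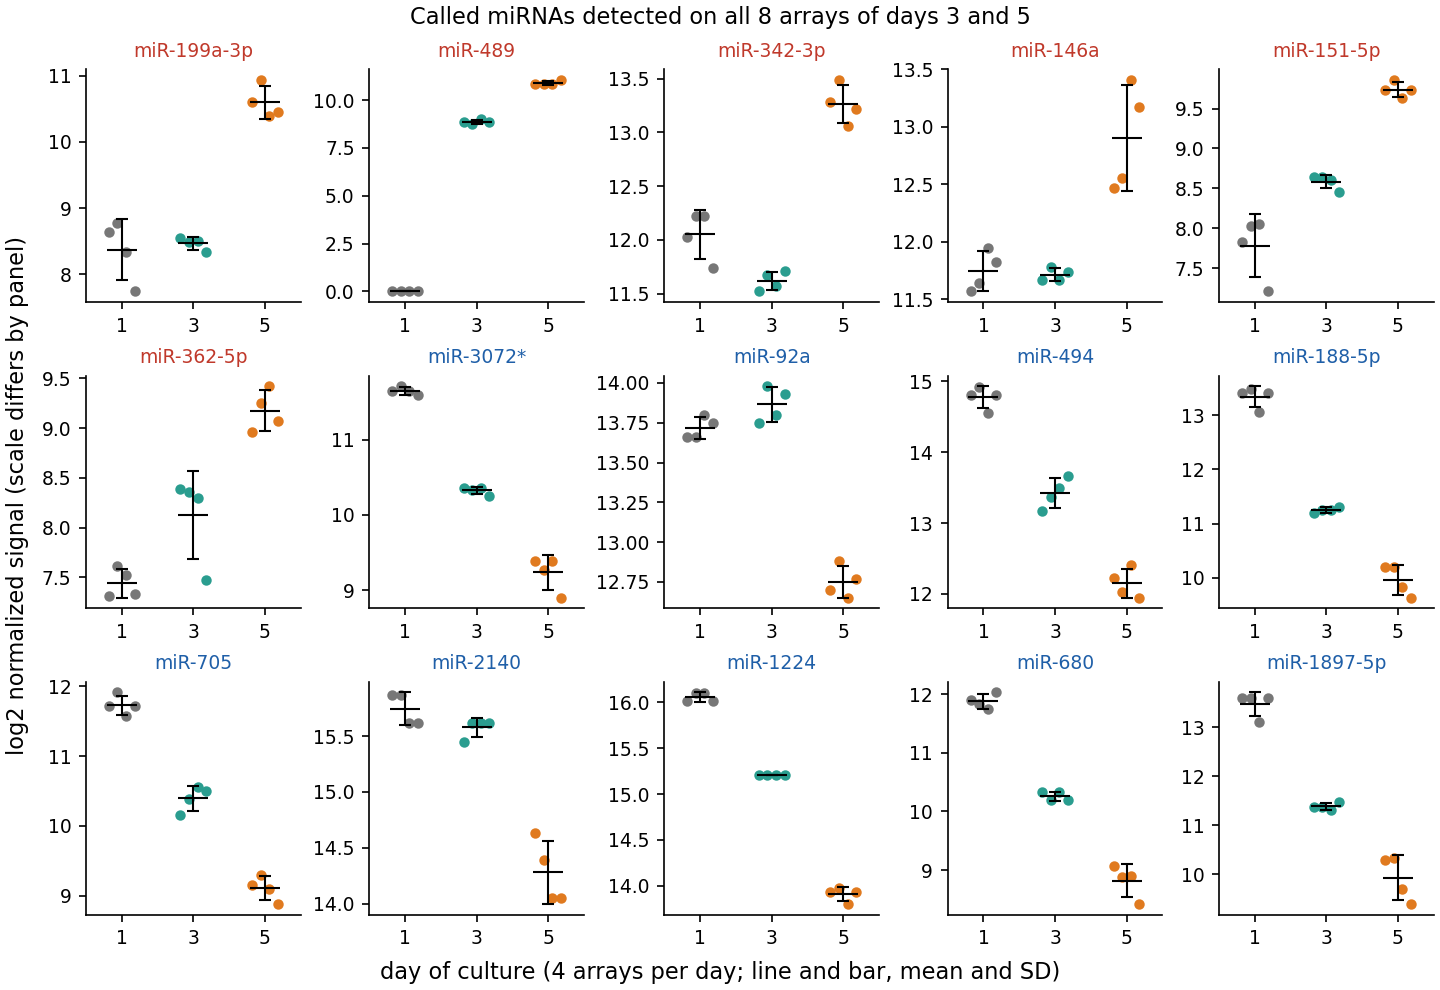
Each panel gives the log2 normalized signal of 1 miRNA on each array (points, 4 per day of culture) with the mean and SD of each day. Red names mark the 6 higher and blue names the 9 lower miRNAs that all 8 arrays detected; in each panel the day 5 points do not overlap the day 3 points, and the y axes differ between panels.

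A further 3 of the 20 higher miRNAs were detected on most arrays of both days. One is miR-101a, known as a repressor of the histone methyltransferase Ezh2. It rose by 1.74 ± 0.29 (SE, adjusted p = 0.000915, limma), from 7.94, 7.69, 7.76 and 6.47 at day 3 to 9.22, 9.05, 9.51 and 9.05 at day 5, and the days did not overlap. Its near relative miR-101b measured 8.82 ± 0.12 at day 3 and 8.81 ± 0.18 at day 5 (SD, n = 4 each). miR-152, which is encoded in Copz2 and belongs to a family known to target the DNA methyltransferase Dnmt1, rose by 1.37 ± 0.18 (SE, adjusted p = 0.00026, limma), from 7.31 to 7.87 up to 8.86 to 9.16. Its seed relatives moved less. miR-148b passed the adjusted p with a difference of 0.36, which was 0.05 with scaling by the 75th percentile over miRNAs that all arrays detected. miR-148a passed it with a difference of -0.28, whose sign turned to 0.28 without normalization between arrays. With normexp, the rises of miR-101a and miR-152 were 0.97 and 0.77, below 2-fold. The third was miR-199a-5p, given above.

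For 10 of the 20 higher miRNAs no day 3 array reached detection, so their fitted changes are no measure of size. For 4 of them a lower bound is given, on the quantile normalized scale, which replaces each undetected day 3 value by the lowest signal of any miRNA detected on that array, unless the value itself was higher. miR-155, processed from the Mir155hg transcript and known as a regulator of myeloid activation and of the transcription factor Mitf, measured 5.30 to 5.84 at day 3, and at day 5 it measured 7.04, 7.21, 7.20 and 6.05, the last being replicate 4, which did not detect it (difference 1.40 ± 0.25 SE, adjusted p = 0.00155, limma). In linear scanner signal replicate 4 gave 16.4, below the 20.1 to 40.3 of the day 3 arrays, so no bound is given. Under the other scalings the difference was 0.54 to 1.28, with normexp it was 0.37, and 9 of 15 alternatives called it. At day 1 all 4 arrays detected it, with a mean of 7.92, so that day 3 was the lowest of the 3 days.

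By the bound described above, miR-132, a miRNA induced through the transcription factor CREB, was 2.10-fold higher (adjusted p = 0.000674, limma). Its change was 1.00, just below 2-fold, without day 5 replicate 2, and 0.42 with normexp. miR-29c*, the opposite arm of miR-29c, was 2.06-fold higher by its bound (adjusted p = 0.00221, limma). All day 3 values of miR-29c* were above the lowest detected signal of their array, so its bound is the fitted change. The bound of miR-132 is close to its fitted change (2.11-fold), so neither is a firm lower limit. The highest day 5 value of miR-29c*, 8.21, came from replicate 4, which did not detect it. miR-130a was at least 2.77-fold higher (adjusted p = 0.00564, limma), but its day 3 and day 5 values overlapped (exact permutation p = 0.0571). The adjusted p of miR-130a was 0.0108 with the replicate number as a block, and leaving out any 1 of day 3 replicates 2, 3 and 4 or day 5 replicates 1, 2 and 3 gave an adjusted p between 0.0123 and 0.0187. With the 5th percentile of detected signals as the reference, the bounds were 1.56 for miR-130a, 1.47 for miR-29c* and 1.37 for miR-132, and no bound above 1 was left for miR-342-5p. Under the other scalings the fitted differences were 0.75 to 1.49 for miR-132, 0.61 to 1.34 for miR-29c*, 1.40 to 2.13 for miR-130a and 1.85 to 2.59 for miR-342-5p, so at the low end miR-132 and miR-29c* were below 2-fold.

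No bound is given for the other 5 of these 10 either. miR-196a, encoded beside Hox genes, was detected on 2 day 5 arrays and miR-501-5p on 3. Their linear signals on day 5 replicate 4, -23.3 and -14.0, were below those of all day 3 arrays, although quantile normalization placed both above the day 3 values. miR-30c-1* and miR-322* were detected on only 1 day 5 array each, and miR-194 on no array of either day. The adjusted p of miR-194 was 0.0108 with the replicate number as a block, and 7 of the 8 fits that left out 1 array did not call it, with an adjusted p between 0.0116 and 0.0229. Among all miRNAs tested, 22 were undetected on every day 3 array and detected on 3 day 5 arrays, and all 22 were undetected on day 5 replicate 4. Without that array, miR-196a, miR-30c-1*, miR-322*, miR-501-5p and miR-194 did not pass the adjusted p (0.0214, 0.0387, 0.0451, 0.135 and 0.0214, limma) and miR-29c* changed by 0.83, below 2-fold. miR-29c* was also just below 2-fold without day 3 replicate 1 or 3 (0.98 and 1.00). miR-322* did not pass without day 3 replicate 1, 2 or 3 (adjusted p = 0.0132, 0.0123 and 0.0111, limma), nor miR-501-5p without day 3 replicate 3 or day 5 replicate 1 (0.011 and 0.0115, limma).

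Among the 15 lower miRNAs, miR-451 fell most. miR-451 is abundant in erythroid cells and is matured by Ago2 without Dicer (probe at mm9 chr11:77886689-77886709). It measured 11.06, 11.06, 10.60 and 10.33 at day 3 and 7.94, 8.06, 7.08 and 7.71 at day 5, a fall by 3.07 ± 0.25 on the log2 scale (SE, adjusted p = 1.27e-05, limma), or 8.37-fold. No values overlapped, and 3 of the 4 day 5 arrays still detected it. The day 1 mean was 14.94. Its cluster partner miR-144 lay at the floor on all arrays of days 3 and 5. In these mixed cultures, fewer cells of a type and less RNA per cell cannot be told apart.

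The 9 lower miRNAs that all 8 arrays detected were miR-1897-5p, miR-680, miR-1224, miR-2140, miR-705, miR-188-5p, miR-494, miR-92a and miR-3072*. Their falls lay between 1.09 and 1.46 on the log2 scale, and none of the 9 was called without normalization. miR-1224, within Vwa5b2, measured 15.21 on each of the 4 day 3 arrays and 13.93, 13.98, 13.80 and 13.93 at day 5, a fall by 1.30 ± 0.06 (SE, adjusted p = 1.83e-07, limma). The equal day 3 values came from equal ranks after quantile normalization, and all 4 day 1 arrays were saturated. The SE and p rest on all 3 days, so in part on values without a measured spread. Its linear scanner signals, 23986 to 27425 at day 3 and 13659 to 20140 at day 5, did not overlap either, although the fall was smaller on that scale: without normalization it was 0.64 on the log2 scale.

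miR-92a, the last member of the miR-17-92 cluster and a miRNA that many cell types express, measured 13.75, 13.98, 13.80 and 13.93 at day 3 and 12.70, 12.88, 12.65 and 12.77 at day 5. All day 5 arrays were below all day 3 arrays, and the fall was 1.11 ± 0.08 (SE, adjusted p = 7.82e-06, limma). Among the 15 lower miRNAs it was the exception whose day 3 mean did not lie between those of day 1 and day 5, since its day 1 mean was 13.72. Without normalization its fall was 0.43, below 2-fold. miR-25, with the same seed, differed by -0.13 ± 0.06 (SE) and did not pass. miR-32, which also has this seed, was undetected on every day 3 array and detected on 3 day 5 arrays. Its fitted difference was 2.54 ± 0.90 (SE), and it did not pass (adjusted p = 0.0538, limma).

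miR-494 belongs to the imprinted Dlk1-Dio3 region of chromosome 12 (probe at mm9 chr12:110953585-110953598), and miR-3072* lies in Mirg, a noncoding gene of the same region. miR-494 fell by 1.27 ± 0.14 (SE, adjusted p = 7.42e-05, limma), from 13.17 to 13.66 at day 3 down to 11.95 to 12.41 at day 5. miR-3072* fell by 1.09 ± 0.10 (SE, adjusted p = 3.64e-05, limma), from 10.25 to 10.36 down to 8.90 to 9.39, and by 0.98 without day 5 replicate 4, and with normexp it differed by -0.44 and was not called. miR-1897-5p, miR-680 and miR-705 fell by 1.46, 1.44 and 1.29, and miR-2140 by 1.30. Of each of these 6 miRNAs all day 5 values were below all day 3 values, and the day 1 means were higher than those of day 3.

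The other 5 lower miRNAs were detected on all day 3 arrays and on 2 or 3 day 5 arrays. miR-290-5p and miR-292-5p come from a cluster that is characteristic of embryonic stem cells. Among the 31 called miRNAs with a matched sequence they were the only ones with a common seed; the seeds of the 4 unmatched, miR-199b* included, were not compared. They fell by 1.37 ± 0.18 and 1.43 ± 0.24 (SE, adjusted p = 0.000185 and 0.000987, limma). miR-290-5p measured 8.99 to 9.18 at day 3 and 7.24 to 8.14 at day 5, and miR-292-5p 6.96 to 7.52 and 5.30 to 6.33, with no overlap in either. miR-1306-3p, from the transcript of the miRNA processing gene Dgcr8, fell by 1.68 ± 0.21 (SE, adjusted p = 0.000185, limma). miR-1896 and miR-1892 fell by 1.42 and 1.35, and miR-1892 had an adjusted p of 0.0111 without day 3 replicate 2 or 3.

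The day 1 arrays were set beside these values as a description, since each comparison with day 1 uses the same day 3 or day 5 arrays and day 1 shared the slide of day 5. The day 3 mean lay between those of days 1 and 5 for 12 of the 20 higher miRNAs and for 14 of the 15 lower ones, beside 212 of all 334. For 8 of the 20 higher miRNAs the day 1 mean was above that of day 3. They included miR-155, miR-132, miR-130a and both arms of miR-342. miR-489 and miR-501-5p were at the floor on all day 1 arrays, with mean levels of 8.86 and 3.46 at day 3 and 10.89 and 5.62 at day 5.

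Genes of miRNAs often lie in clusters that are transcribed together, and 17 of the 35 changed miRNAs had another tested miRNA within 10 kb on mm9. The share among all tested miRNAs was not counted, so this number does not set the changed ones apart. For both arms of miR-342 and for miR-1897-5p, the only such miRNA was the opposite arm of the same hairpin. The cluster on the X chromosome within Clcn5, a chloride transporter gene, held 8 tested entries in 10733 bases (mm9 chrX:6814874-6825606). miR-500, miR-362-3p, miR-532-5p and miR-532-3p passed the adjusted p with rises of 0.75, 0.96, 0.87 and 0.55, and miR-501-5p and miR-362-5p were called higher, as given above. miR-362-3p was also called without day 5 replicate 1 or 2, with changes of 1.03 and 1.02. miR-501-3p differed by 2.08 ± 1.26 (SE) and did not pass. miR-188-5p was the exception. It fell by 1.29 ± 0.14 (SE, adjusted p = 7.97e-05, limma), with values of 11.19, 11.25, 11.25 and 11.31 at day 3 and 10.19, 10.19, 9.83 and 9.63 at day 5. Between miR-362-5p and miR-188-5p the within-array difference was -3.12 ± 0.49 at day 3 and -0.79 ± 0.38 at day 5 (SD, n = 4 each), with no overlap. Levels of different probes are not comparable, so only the shift between the days can be read.

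The miR-17-92 cluster, encoded in Mir17hg and known for promoting proliferation, had 9 tested entries in 803 bases of chromosome 14 (mm9 chr14:115442916-115443718). miR-17*, miR-18a and miR-20a passed the adjusted p with falls of 0.74, 0.52 and 0.68, below 2-fold, and miR-92a was called lower. miR-20a measured 13.41 to 13.49 at day 3 and 12.70 to 12.77 at day 5. Without normalization, however, its difference was 0.03, and those of miR-17* and miR-18a were -0.10 and -0.07. miR-19a and miR-19b, from the same transcript, differed by -0.08 ± 0.16 and 0.04 ± 0.06 (SE) and did not pass. miR-17, miR-18a* and miR-20a* did not pass either, with differences of -0.48, -0.92 and -0.34, and without day 5 replicate 4 miR-18a* was called lower with a change of -1.37 (adjusted p = 0.00134, limma). The files list 2 genomic places each for miR-17, miR-19b and miR-92a, so their signals cannot be assigned to this transcript alone. On the same array miR-92a minus miR-19b was 0.24 ± 0.11 at day 3 and -0.91 ± 0.16 at day 5 (SD, n = 4 each), with no overlap between the days. miR-106b, listed with this family but on chromosome 5, differed by 0.18 ± 0.13 (SE) and did not pass.

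**Figure D3:**
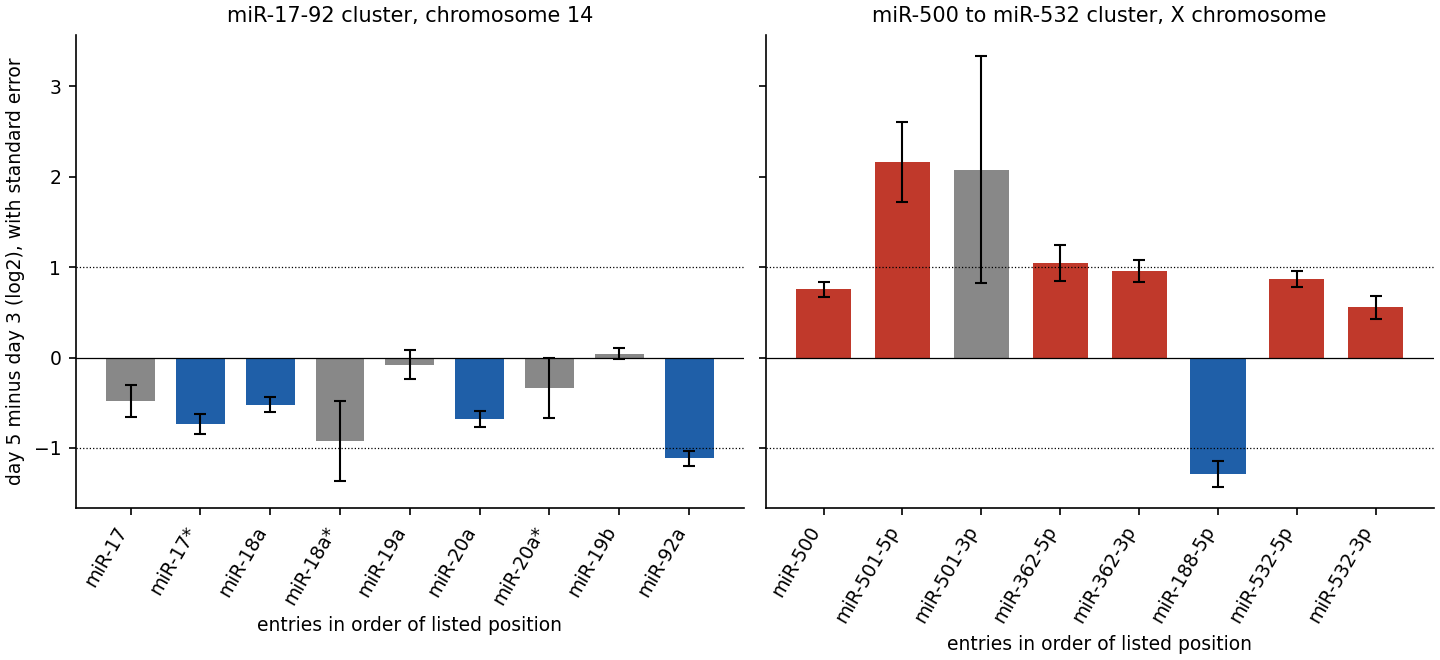
Bars give the change (day 5 minus day 3, log2) with its standard error for the tested entries of 2 clusters in order of position; red and blue bars passed an adjusted p of 0.01, grey bars did not, and dotted lines mark a 2-fold change. In the X chromosome cluster miR-188-5p is the only bar below 0, and in the miR-17-92 cluster miR-92a is the only one that is both past the adjusted p and beyond 2-fold.

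Neighbors were also measured in other clusters. On chromosome 1, miR-199a-5p, miR-199a-3p and miR-214 lie within 5612 bases in a noncoding transcript, Dnm3os, that runs antisense to Dnm3. miR-214 measured 5.99 to 6.29 on the day 3 arrays, none of which detected it, and 7.68 to 9.18 at day 5, at least 4.84-fold more, or 2.58-fold with the 5th percentile as the reference, yet did not pass in the fit over the 3 days (adjusted p = 0.149, limma), in which its day 1 values ranged from 0.00 to 5.65. In the miR-29b/miR-29c cluster, miR-29b and miR-29c passed with rises of 0.80 and 0.47 beside the called miR-29c*. miR-212-3p, next to miR-132 and with its seed, differed by -0.08 ± 0.23 (SE) and did not pass.

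Lists of miRNAs with known roles were then described by counts and medians, beside the median change of 0 over all 334. Of 9 miRNAs listed as promoting osteoclast formation, 8 were tested, none was called, 4 passed the adjusted p upward and 1 downward (14.7% and 10.8% of all 334), and the median change was 0.52. miR-29a, with targets that include the cytoskeletal regulator Cdc42, measured 14.05 to 14.18 at day 3 and 14.85 to 15.07 at day 5, and its rise of 0.84 ± 0.07 (SE, adjusted p = 2.04e-05, limma) was 1.80-fold. miR-99b, which the study followed in functional work, rose by 0.56 ± 0.13 (SE, adjusted p = 0.00564, limma), also below 2-fold. miR-148a was the 1 that passed downward. miR-183 differed by 0.02 ± 0.07 (SE). miR-21 was saturated on every array of both days, so that no change can be given, and miR-31 was not detected on any array.

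Of 9 miRNAs listed as restraining osteoclast formation or its signaling, 7 were tested and 2, miR-146a and miR-155, were called higher, beside 5.99% of all 334. The median change was 0.64, and the limits of miR-155 given above hold here too. miR-34a, known to repress osteoclast differentiation, measured 13.02 ± 0.05 at day 3 and 13.32 ± 0.09 at day 5 (SD, n = 4 each) and did not pass, nor did miR-26a and miR-125a-5p with differences of 0.28 and 0.64. miR-503 differed by 0.83 ± 0.63 (SE) with no detection at day 3, and miR-7b was detected on neither day. miR-124 and miR-218 were detected on no array and were not tested.

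**Figure D4:**
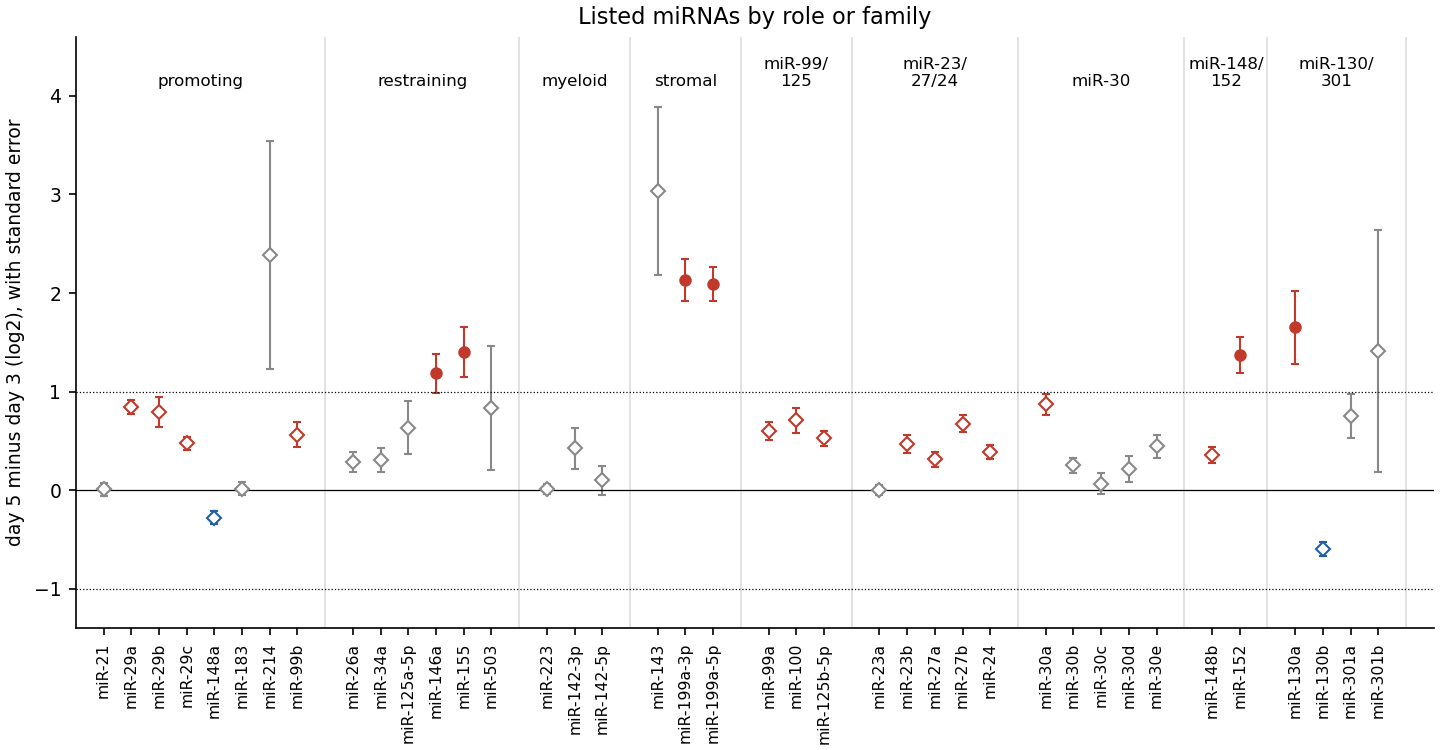
Points give the change (day 5 minus day 3, log2) with its standard error for the detected members of lists by role or family; a miRNA of several lists is drawn once. Filled circles were called, open red and blue diamonds passed the adjusted p below 2-fold, grey ones did not pass, and miR-21, miR-223 and miR-23a were saturated on all day 5 arrays. In the promoting list no circle is filled, and in the stromal list both arms of miR-199a are.

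In several families members passed the adjusted p with rises below 2-fold, beside 25.4% of all 334 past it and 14.7% past it upward. In the miR-99 and miR-125 families, which repress among others the mTOR pathway, 4 of 5 members passed, all higher, and the median change was 0.60. miR-100 measured 8.99 to 9.32 at day 3 and 9.58 to 10.03 at day 5. Of the miR-23, miR-27 and miR-24 clusters, 4 of 5 entries passed, with rises of 0.31 to 0.68. The smallest, that of miR-27a, was 0.03 to 0.77 under the other scalings. miR-27b rose by 0.68 and miR-23a was saturated on all day 5 arrays. All 3 members of the miR-29 family passed, 1 of 5 in the miR-30 family (miR-30a, 0.87 ± 0.10 SE), and 1 of 9 in the let-7 family (let-7i, 0.32 ± 0.07 SE). Under the other scalings let-7i rose by 0.003 to 0.74. The largest let-7 rise was that of let-7e, 0.91 ± 0.24 (SE), from 9.27 to 9.55 at day 3 up to 10.12 to 10.50 at day 5. The days did not overlap, but let-7e did not pass (adjusted p = 0.0135, limma), and its day 1 spread, which the fit uses, was wider (SD 0.57). let-7f was saturated on all 4 day 5 arrays, so its change was not fully measured. In the miR-15/16 family miR-322 passed with 0.60, and miR-15b differed by -0.09 ± 0.11 (SE) and did not pass. miR-497, at 1.06 (adjusted p = 0.0224, limma), was called only in some alternatives, among them the fit with the replicate number as a block (adjusted p = 0.00819). Of the miR-130 and miR-301 family, miR-130b fell by 0.60 ± 0.07 (SE, adjusted p = 0.000168, limma), with 0.02 as its difference without normalization, while miR-301a differed by 0.75 (adjusted p = 0.0229, limma). miR-721, which shares their seed, differed by -1.22 (adjusted p = 0.0156, limma).

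Other miRNAs of the culture did not pass at this interval. miR-365, which the study also followed, measured 12.13, 12.13, 12.06 and 12.31 at day 3 and 12.13, 12.22, 12.16 and 12.47 at day 5, with overlapping arrays and a difference of 0.09 ± 0.12 (SE). Its day 1 mean was 8.68. miR-96, miR-182 and miR-183, a cluster whose entries were at the floor on all day 1 arrays, differed by 0.27, -0.07 and 0.02. miR-221 and miR-222 differed by 0.05 and -0.26, and miR-193b by -0.34. The 4 members of the miR-181 family had changes between -0.34 and 0.16, none of them past the adjusted p.

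The labelled cell type was checked with marker lists. The myeloid markers miR-223, miR-142-3p and miR-142-5p were detected on all 8 arrays, and their summed level, the log2 of the sum of their normalized signals, was 16.24 to 16.43 at day 3 and 16.35 to 16.55 at day 5. None of the 3 passed the adjusted p, and miR-223 was saturated on all 4 day 5 arrays. Of the lymphoid list, miR-150 was undetected on both days, and the summed level of its 3 members was 10.92 to 11.26 at day 3 and 10.67 to 11.12 at day 5. Both megakaryocytic and endothelial markers, the arms of miR-126, were undetected on both days. Of the erythroid list, 2 of 4 miRNAs were tested, and its summed level fell with miR-451 from 10.33 to 11.06 down to 7.09 to 8.07.

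The stromal list moved the other way. Its 5 members, both arms of miR-199a with miR-214, miR-145 and miR-143, had a summed level of 9.21 to 9.39 at day 3 and 11.34 to 11.83 at day 5. Both arms of miR-199a were called higher, while miR-143, miR-145 and miR-214 did not pass the adjusted p (0.018, 0.0311 and 0.149, limma). miR-143 was undetected at day 3 and at least 6.78-fold higher at day 5, or 1.92-fold with the 5th percentile as the reference. At day 5 replicates 1 to 3 measured 8.42, 8.52 and 8.26 and replicate 4, without detection, 7.38. Without that replicate it was called higher, with a change of 2.95 (adjusted p = 0.000424, limma). With all arrays its days did not overlap either, since its day 3 values were 4.72 to 5.49. The fit over the 3 days also uses its day 1 values, none of them detected, which ranged from 0.00 to 4.88. Of 14 alternatives other than those that left out 1 array, 9 called miR-143, and with normexp its change was 0.97, below 2-fold. miR-145 was detected on neither day. The part of stromal cells in the rises of miR-199a, and of erythroid cells in the fall of miR-451, was not tested. Red cells had been lysed before culture, per the study's methods.

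The called miRNAs also differed in base composition, read from the stretch of each miRNA that its probes match. The median GC content was 47.2% for the 20 higher miRNAs (33.3% to 57.1%), 64.3% for the 15 lower ones (36.4% to 76.9%), and 50% for all tested. Over the 165 miRNAs detected on all 8 arrays, GC content and change had a Spearman correlation of -0.37, which describes miRNAs measured on the same arrays and has no test. It was -0.38 without normalization and with each scaling that multiplies a whole array by a factor. Such a factor shifts all changes equally and cannot alter this correlation, so these scalings are no separate checks of it. The correlation was -0.36 with the processed spot signal, -0.37 with normexp and -0.40 with the values deposited by the authors. Of 37 such miRNAs with more than 60% GC, none was called higher and 6 were called lower, with a median change of -0.34, and of 128 others 6 were called higher and 3 lower, with a median of 0.13. The sequences of miR-705 and miR-3072* above, with 75% and 77.3% of G and C over their whole length, stand against those of miR-489 and miR-199a-3p with 43.5% and 40.9%. The part of base composition, slide or labeling in these changes was not tested.

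**Figure D5:**
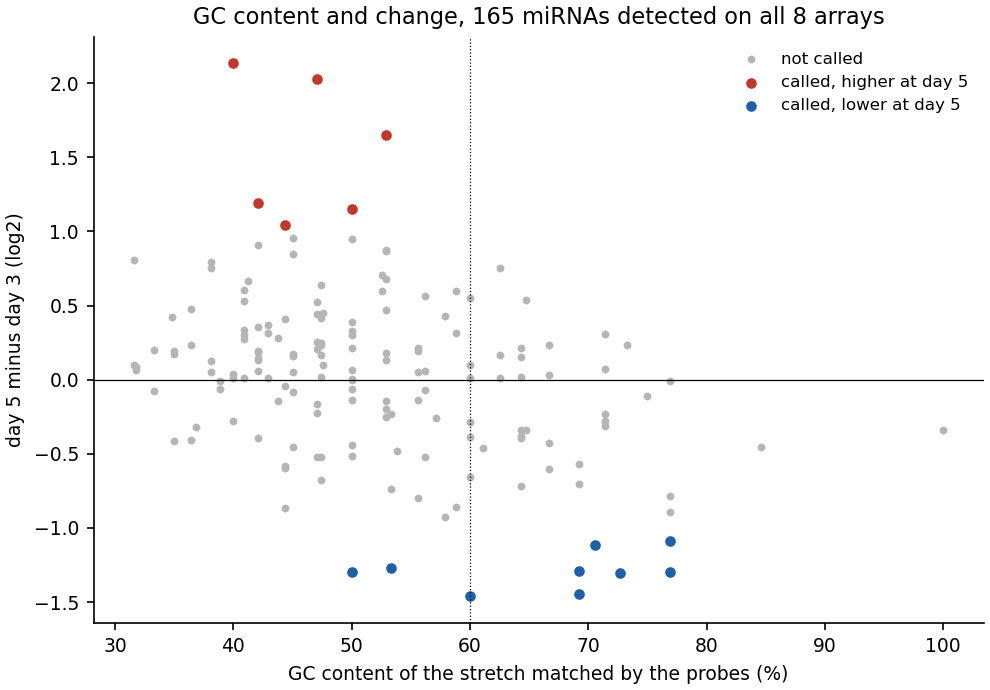
Each point is 1 of the 165 miRNAs detected on all 8 arrays, with the GC content of the stretch its probes match (%) on the x axis and the change (day 5 minus day 3, log2) on the y axis. Right of the dotted line at 60% lie 6 of the 9 blue points (called lower) and no red point (called higher).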

How the data were processed

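The scanner files deposited by the authors came from Agilent Feature Extraction 9.5.3.1. Their values are background-subtracted intensity on a linear scale, not normalized between arrays, with probe positions on mm9. The authors also deposited log2 values after quantile normalization in GeneSpring, used as an alternative. Total signals per mouse miRNA (20 spots, 1 color) were quantile normalized over the 334 miRNAs detected on at least 1 array, raised to a floor of 1 where lower (248 of 2672 values of days 3 and 5, 9.28%) and put on the log2 scale. With limma 3.58.1 in R 4.3.3, a fit with a mean for each day used all 12 arrays. Its SE and p thus rest on the spread of all 3 days, which was 0 for a day whose arrays all lay at the floor or had equal ranks. The fit was also run on simulated arrays with independent noise and no slide effect, so that run cannot show how slides affect it. A miRNA was called with an adjusted p under 0.01 and a change over 2-fold. The number of arrays, 4 per day, limits the precision.

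Single miRNAs were compared by exact permutation (Python 3.11.15, numpy 2.4.6, pandas 2.3.3, scipy 1.17.1; figures with matplotlib 3.10.9). Arrays of days 3 and 5 with the same replicate number had correlated deviations from their day means (r = 0.82, 0.12, 0.40 and 0.78). Day 5 replicate 2 correlated more with day 3 replicates 1 and 3 (r = 0.52 and 0.15). No source used here says what a number marks. The main fit and the permutation did not pair the arrays, and the number entered only the alternative with the replicate block. Positions of probes come from the files, and sequences and host genes from RefSeq tables of GRCm38.p6, matched for 266 of 334 miRNAs.

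Named were the 12 largest called rises and falls (6 and 9 existed) that all 8 arrays detected without overlap, detected members of the role and marker lists, the extreme members of each family, and miR-365, miR-451 and miR-99b. This gave 54 miRNAs, and 27 more, the other called ones and members of 2 clusters, were named after their values were seen. The members and lists were chosen with earlier results of these data known.

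Alternatives changed the filter, scaling, background correction, floor, test, threshold, the block and the arrays included, and used the deposited values.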

Additional observations from a re-analysis of the deposited data

Results flagged for a closer look

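In 21 of 147 groups of 4 arrays, 1 array stood apart by more than Dixon's critical value for the gap over the range, where chance flags about 1 in 20. Day 5 replicate 4, the array with the fewest detected miRNAs, accounted for 7 of these: miR-489 (0.894), miR-155 (0.855), miR-503 (0.85), miR-1892 (0.832), miR-1896 (0.864), miR-501-3p (0.868) and miR-20a (1). At day 3, replicate 4 stood apart for miR-362-5p (0.897), miR-142-5p (0.902), miR-101a (0.832), miR-193b (0.852) and miR-18a* (0.949). A gap of 1 means that the other 3 arrays had equal values after quantile normalization, and this was so for miR-2140, miR-223 and miR-17 (day 3 replicate 1), miR-17* and miR-20a (day 3 replicate 2), miR-21 and miR-148a (day 3 replicate 3), miR-221 (day 5 replicate 2) and miR-19a (day 5 replicate 3).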

How the results depend on the processing

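No change of a named miRNA that was called turned its sign under any alternative. Over the named miRNAs and all alternatives, 1844 changes kept their direction and side of the threshold, 123 lost the call, 36 gained it and 45 uncalled ones crossed 0. Against 35 called (20 higher, 15 lower) and 85 past the adjusted p, detection on all 12 arrays gave 14 called (5 and 9), normexp background correction 18 (7 higher), and the methods' one-way analysis of variance 56 called (28 lower, 214 past p) or, adjusted, 55 (28 lower, 201 past p). Scaling to the 75th percentile over all miRNAs gave 12 higher and 40 past p, and over the miRNAs detected on all arrays 10 higher and 24 lower with a median change of -0.26. Without normalization there were 46 higher and 3 lower with a median of 0.36, and the deposited values gave 8 higher and 25 lower. Leaving out 1 array gave 29 to 35 called, 15 to 20 higher, 14 to 18 lower and 63 to 77 past p, with the lowest count of called miRNAs without day 3 replicate 3. With the replicate block, 34 were called (19 higher, 15 lower), 33 of them shared: miR-130a and miR-194 were lost, miR-497 was gained, and no other call changed. Restriction to the 8 arrays of days 3 and 5 gave 31. The bounds with the 5th percentile were added after the data were seen. Signals near the background limit the miRNAs not detected on day 3 or on day 5 replicate 4.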
